A study of Mus musculus with 6 samples.

Results

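The 7 genes described here, Drd1, Drd2, Adora2a, Ppp1r1b, Rgs9, Penk and Pde10a, are transcribed strongly in the medium spiny neurons of the striatum, the nucleus that lies directly beneath the cortex. They were matched by gene name, and the choice was made with earlier results of these data known. All 7 were found among the 51826 genes of the deposited tables and were among the 18345 genes that passed the filter on low counts. The question they address is whether the dissected tissue differed between the groups. Bulk poly(A) RNA sequencing was performed on cortex from 3 Lgmn+/+ and 3 Lgmn-/- male BALB/c mice, 6 to 8 weeks old, 1 library a mouse. All 6 mice received a single 10 Gy dose of X-rays to the whole brain, and the cortices were taken 3 days later, so every group named below is irradiated and no unirradiated library was analysed here. Lgmn encodes legumain, also called asparagine endopeptidase or AEP, a lysosomal cysteine protease. The Lgmn-/- mice were Lgmn flox/flox mice carrying Cre, whose driver is not given in the sources used here, and neither are the borders of the dissection.

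Medium spiny neurons are the GABAergic projection neurons that make up most of the striatum, and they fall into a pair of classes. Direct-pathway neurons carry the dopamine D1 receptor, which raises cyclic AMP, and indirect-pathway neurons carry the D2 receptor, which lowers it, together with the adenosine receptor encoded by Adora2a and the opioid precursor proenkephalin. Cyclic AMP signalling in both classes passes through DARPP-32 and is ended by phosphodiesterases. Some of these genes are also transcribed at lower levels by cortical cells, so a cortical library is not expected to lack them.

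Sequence is shown for the receptor genes that mark the 2 classes and for Penk, which with Ppp1r1b had the highest level per length of the 7. On GRCm38 with GENCODE M21, Drd1 lies on the minus strand of chromosome 13 from 54051183 to 54055705, and Drd2 on the plus strand of chromosome 9 from 49340627 to 49408177. RefSeq promoter sequences (build GRCm38.p6) matched 4 of the 7 members, Drd1, Drd2, Rgs9 and Pde10a, with 6 promoters in all. The stretches printed are the 203 bases of the first Drd1 promoter that lie outside the annotated gene (chr13:54055706-54055908, minus strand) and the 250 bases of the Drd2 promoter (chr9:49340153-49340402, plus strand), each 5′ to 3′. Capitals mark the GC box, searched as the letters GGGCGG or their reverse complement CCGCCC.
Drd1: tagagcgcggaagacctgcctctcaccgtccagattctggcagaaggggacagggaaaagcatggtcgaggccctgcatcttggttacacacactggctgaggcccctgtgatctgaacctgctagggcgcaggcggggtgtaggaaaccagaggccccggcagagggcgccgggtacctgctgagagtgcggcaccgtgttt
Drd2: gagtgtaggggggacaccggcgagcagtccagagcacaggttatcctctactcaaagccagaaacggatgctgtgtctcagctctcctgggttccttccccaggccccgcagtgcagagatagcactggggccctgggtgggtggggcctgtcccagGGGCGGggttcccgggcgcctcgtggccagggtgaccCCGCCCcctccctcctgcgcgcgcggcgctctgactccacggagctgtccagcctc
The GC box was present 2 times in the Drd2 stretch and 0 times in the 250-base window of this Drd1 promoter. It was present in 4 of the 6 windows of the members and in 32.7% of 32851 RefSeq windows of 250 bases. The core of the cyclic AMP response element, searched as TGACG or CGTCA, was present in 17.8% of all windows and in 0 of those 6, so the 2 motifs did not overlap in them. These are descriptions of letters in the windows.

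Penk lies on the minus strand of chromosome 4 from 4133531 to 4138819 and encodes proenkephalin, which is cut into several enkephalin peptides. The stretch below, inside 1 exon (chr4:4134073-4134372, minus strand, coding bases 274 to 573 of 804), was read from the reference genome. Capitals mark the codon runs for Met-enkephalin, of which the coding sequence holds 6, 4 of them here, and 1 run for Leu-enkephalin lies outside the stretch.
Penk: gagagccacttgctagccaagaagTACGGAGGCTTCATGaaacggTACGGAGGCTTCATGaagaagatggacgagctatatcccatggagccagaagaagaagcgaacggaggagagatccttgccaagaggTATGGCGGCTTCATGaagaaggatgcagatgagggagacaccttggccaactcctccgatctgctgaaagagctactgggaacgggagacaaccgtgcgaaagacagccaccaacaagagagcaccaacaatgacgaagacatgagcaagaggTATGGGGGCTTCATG
The remaining members lie on chromosome 10 from 75316877 to 75334784 (Adora2a, plus strand), chromosome 11 from 98348404 to 98357796 (Ppp1r1b, plus strand), chromosome 11 from 109225355 to 109298129 (Rgs9, minus strand) and chromosome 17 from 8525372 to 8986648 (Pde10a, plus strand). All 7 are protein-coding genes.

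The 6 libraries held 41874462 to 46829441 counts each, a 1.12-fold range. Lgmn, the targeted gene, was at 130, 129 and 127 CPM (counts relative to the library's total, scaled between libraries by TMM) in the Lgmn+/+ libraries and at 83.4, 70.4 and 93.6 CPM in the Lgmn-/- libraries, so the genotypes did not overlap. Its log2 fold change was -0.64 (SE 0.12, adjusted p = 0.03149, edgeR), and the adjusted p ranged from 0.0002833 to 0.1251 over the 15 alternative fits, 9 of which called it. Leaving out any of the Lgmn+/+ libraries or Lgmn-/- library 1 ended the call, with adjusted p between 0.09082 and 0.1251. Counts by exon were not analysed here, so the floxed region was not checked on its own. Among lists of brain genes, the genotypes differed in 6 of 8 oligodendrocyte genes, all lower in Lgmn-/- (among them Mog, Mag, Mobp, Cnp and Cldn11), and in 5 of 5 red blood cell genes, all higher. The summed red blood cell genes were at 13.1, 7.59 and 15.8 CPM in the Lgmn+/+ libraries and at 2273, 1728 and 234 CPM in the Lgmn-/- libraries, an order between libraries that is not that of the members. edgeR also called 2 of 15 cortical interneuron genes (Npy at 0.68 and Crh at 0.69 on the log2 scale) and 1 of 8 astrocyte genes (Aqp4 at 0.55), all higher in Lgmn-/-, and 1 of 9 hippocampal genes tested (Lct at -1.09). It called 0 genes of the cortical excitatory, dopaminergic, thalamic, hypothalamic, choroid plexus, pan-neuronal, microglia and endothelial lists, with 0 to 2 in each at an unadjusted p under 0.05. Of all genes tested, edgeR called 3.33%, and 18.6% had an unadjusted p under 0.05.

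The striatal genes differed several-fold between libraries of the same genotype, and none of the 7 was called between the genotypes. Lgmn+/+ libraries 2 and 3 and Lgmn-/- library 1 held high levels, and Lgmn+/+ library 1 and Lgmn-/- libraries 2 and 3 held low ones. Over the 6 libraries the highest level of a member was 5.15 to 12.9 times its lowest.

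Drd1, the dopamine receptor of the direct pathway, was at 14.1, 44.1 and 70.8 CPM in Lgmn+/+ libraries 1 to 3 and at 59.8, 16.2 and 12.3 CPM in Lgmn-/- libraries 1 to 3. The highest and the lowest library belonged to different genotypes, and the genotypes overlapped over most of their range. Drd2, the dopamine receptor of the indirect pathway, was at 13.3, 53.2 and 88.2 CPM in Lgmn+/+ and at 84.5, 10.9 and 11.0 CPM in Lgmn-/-. Adora2a, the adenosine receptor found with Drd2, was at 18.4, 78.7 and 138.5 CPM in Lgmn+/+ and at 104.3, 17.4 and 11.8 CPM in Lgmn-/-. Both receptor genes of the indirect pathway were therefore high in the same 3 libraries as Drd1, across both genotypes.

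Penk was at 82.5, 331 and 457 CPM in Lgmn+/+ and at 505, 107 and 96.5 CPM in Lgmn-/-. Its highest value came from an Lgmn-/- library and its lowest from an Lgmn+/+ library. Ppp1r1b, which encodes DARPP-32, an inhibitor of protein phosphatase 1 that is switched on by cyclic AMP signalling, was at 220.1, 399 and 632 CPM in Lgmn+/+ and at 717, 139 and 177 CPM in Lgmn-/-. Rgs9, which shortens signalling by the G proteins coupled to D2 receptors, was at 27.1, 87.7 and 137 CPM in Lgmn+/+ and at 119.5, 13.6 and 10.7 CPM in Lgmn-/-. Rgs9 had the widest range of the 7, 12.9-fold over the 6 libraries.

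Pde10a, the phosphodiesterase abundant in medium spiny neurons, was at 79.0, 65.0 and 423 CPM in Lgmn+/+ and at 198, 49.7 and 71.9 CPM in Lgmn-/-. It was the exception to the shared order, since Lgmn+/+ library 2 was not above Lgmn+/+ library 1 in CPM. In FPKM, the deposited values that also divide by transcript length, the same libraries held 9.36, 10.5 and 49.4 for Lgmn+/+ and 24.6, 6.29 and 8.37 for Lgmn-/-, so the 3 highest libraries were again Lgmn+/+ 2 and 3 and Lgmn-/- 1. The lowest count of any member in any library was 469, and the counting error of a member's value was at most 4.62%.

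**Figure D1:**
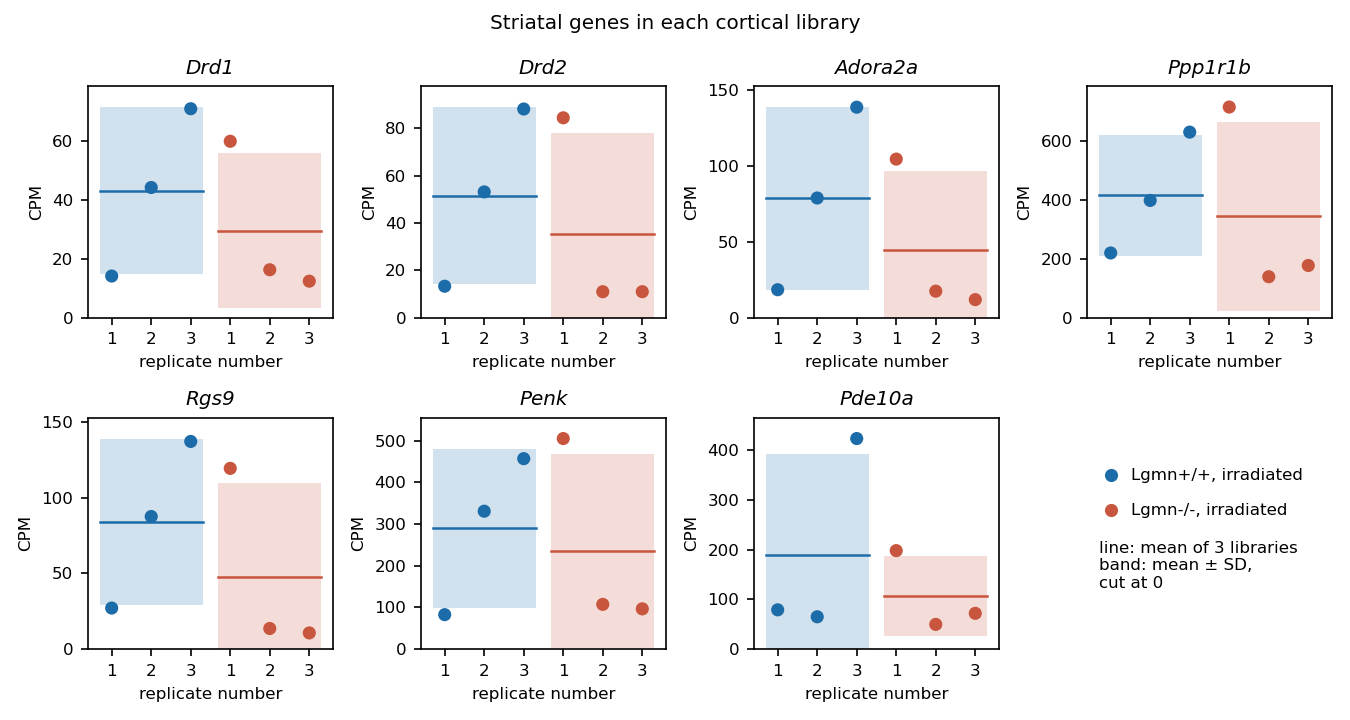
Each panel plots 1 striatal gene in CPM on a linear axis from 0, with 1 point a library by replicate number, Lgmn+/+ in blue and Lgmn-/- in red. Lines are means of 3 libraries and bands the mean ± SD cut at 0. Lgmn+/+ libraries 2 and 3 and Lgmn-/- library 1 are the 3 highest in 6 of 7 panels, Pde10a excepted, and the bands of the genotypes overlap in every panel.

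Levels can be compared between members per length only. Mean FPKM in Lgmn+/+ was 213 ± 141 (SD, n = 3) for Penk, 205 ± 84.5 for Ppp1r1b, 38.4 ± 29.8 for Adora2a, 36.2 ± 23.2 for Rgs9, 23.1 ± 22.8 for Pde10a, 18.1 ± 13.0 for Drd2 and 12.2 ± 8.16 for Drd1. In Lgmn-/- it was 228 ± 228 for Penk, 192 ± 191 for Ppp1r1b, 21.2 ± 27.9 for Rgs9, 21.0 ± 26.0 for Adora2a, 13.1 ± 10.0 for Pde10a, 12.2 ± 14.6 for Drd2 and 8.16 ± 7.62 for Drd1. The proenkephalin and DARPP-32 genes were the 2 highest of the 7 in every library. The widest step was from Ppp1r1b to the next member, and it exceeded both SDs in Lgmn+/+ (to Adora2a) and the SD of Rgs9, but not that of Ppp1r1b, in Lgmn-/- (to Rgs9). All other neighbours differed by less than either SD.

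The ratio between the receptor genes of the 2 classes was not constant. Drd1 counts divided by Drd2 counts gave 1.06, 0.83 and 0.80 in Lgmn+/+ libraries 1 to 3 and 0.71, 1.48 and 1.13 in Lgmn-/- libraries 1 to 3. In FPKM, per length, the ratios were 0.81, 0.67 and 0.66 in Lgmn+/+ and 0.58, 1.13 and 0.88 in Lgmn-/-. On both scales the 3 lowest ratios came from Lgmn+/+ libraries 2 and 3 and Lgmn-/- library 1, the libraries with the higher levels.

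The genotype comparison gave no call. edgeR's quasi-likelihood test on all 18345 genes called 0 of the 7 members at an adjusted p under 0.05, against 3.33% of all genes tested (611 genes, 303 or 1.65% higher and 308 or 1.68% lower in Lgmn-/-). At an unadjusted p under 0.05 it was again 0 of 7, against 18.6% of all genes, and the genotypes were apart without overlap for 0 of 7, against 25.7% of all genes. DESeq2, limma-voom and limma on log2 FPKM also called 0 of 7.

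The fitted differences all lay below 0, by less than their standard errors except for Pde10a. The log2 fold change of Lgmn-/- against Lgmn+/+ was -0.55 for Drd1 (SE 0.73, adjusted p = 0.7325, edgeR). For Drd2 it was -0.54 (SE 0.94, adjusted p = 0.7995), and for Adora2a -0.82 (SE 0.95, adjusted p = 0.6931). Ppp1r1b, at -0.28 (SE 0.66, adjusted p = 0.8548), and Penk, at -0.30 (SE 0.79, adjusted p = 0.8708), had the smallest differences. Rgs9 was at -0.81 (SE 0.98, adjusted p = 0.7042) and Pde10a at -0.83 (SE 0.81, adjusted p = 0.6347). The median of the 7 was -0.55, beside -0.01 over all genes tested.

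The precision of these values was low, and a p that misses the threshold does not show equal levels. The 95% interval of the fold between genotypes ran from 0.21 to 2.24 for Drd1, from 0.15 to 3.18 for Drd2 and from 0.12 to 2.80 for Rgs9. The direction rested on single libraries. Without Lgmn+/+ library 3 the median of the members was 0.09 and 5 of the 7 turned to above 0, up to 0.57 for Pde10a. Without Lgmn-/- library 1 the median was -1.64, and Rgs9 was at -2.79 (adjusted p = 0.1109, the lowest of any member in any fit). In that edgeR fit 5 of the 7 had an unadjusted p under 0.05, as had 3019 of all 18345 genes. After adjustment 0 of the 7 were called, against 2.06% of all genes. Without Lgmn-/- library 2 or 3, Ppp1r1b and Penk lay above 0, by at most 0.10.

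**Figure D2:**
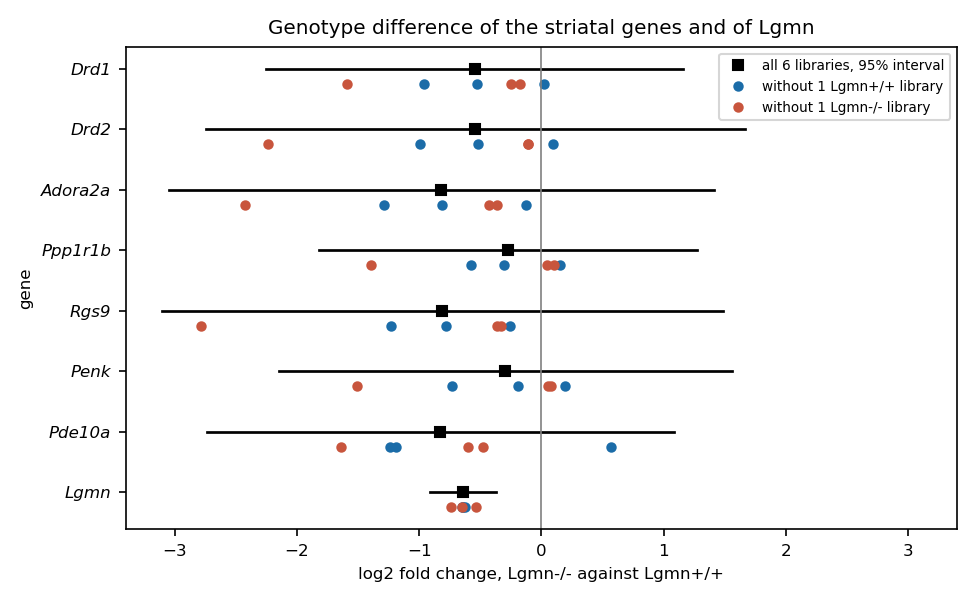
The log2 fold change of Lgmn-/- against Lgmn+/+ is plotted for the 7 striatal genes and Lgmn, as a square with its 95% interval from edgeR over all 6 libraries and, below it, points for the fits that leave out 1 Lgmn+/+ library (blue) or 1 Lgmn-/- library (red). Every interval of a striatal gene spans 0, the lowest point of each is the fit without Lgmn-/- library 1, and the interval of Lgmn lies below 0.

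The spread within a genotype set the members apart from most genes. The SD of log2 CPM within genotype was 1.05 for Ppp1r1b, 1.19 for Drd1, 1.28 for Pde10a, 1.32 for Penk, 1.54 for Drd2, 1.57 for Adora2a and 1.58 for Rgs9. These values lay at percentiles 99.19 to 99.83 of all genes tested, and at 99.07 to 99.79 of the genes with a mean of at least 5 CPM. Lgmn had an SD of 0.15, at percentile 35.93. A spread this wide was not particular to the members. The median percentile of the other lists ran from 24.1 (astrocyte genes) to 99.8 (striatal cholinergic genes). It was 98.8 for the other striatal genes, 98.8 for hypothalamic, 97.2 for dopaminergic and 99.6 for red blood cell genes. Within Lgmn+/+ the highest library was 2.87 times the lowest for Ppp1r1b and 7.55 times for Adora2a, the ends of the range of the 7. Within Lgmn-/- the ends were 3.99 for Pde10a and 11.2 for Rgs9.

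**Figure D3:**
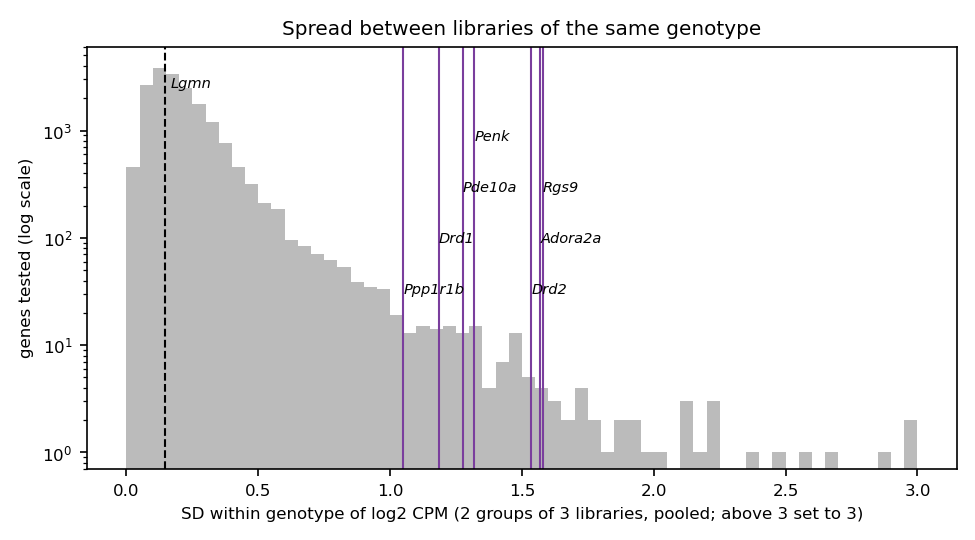
The histogram counts genes tested (log axis) by the SD of their log2 CPM within genotype, pooled over both groups of 3 libraries, with values above 3 set to 3. Purple lines mark the 7 striatal genes, all at 1.05 or above in the right tail, and the dashed line marks Lgmn at 0.15.

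The summed level of the members was 454, 1058 and 1947 CPM in Lgmn+/+ libraries 1 to 3 and 1788, 354 and 392 CPM in Lgmn-/- libraries 1 to 3. The genotype means were 1153 ± 751 and 845 ± 817 CPM (SD, n = 3), a ratio of 0.73 that was 1.12 without Lgmn+/+ library 3 and 0.32 without Lgmn-/- library 1. As a share of all counts the members made up 0.046%, 0.108% and 0.195% in Lgmn+/+ and 0.177%, 0.037% and 0.037% in Lgmn-/-. In bulk tissue, fewer cells of a type and less RNA per cell cannot be told apart, and whether the amount of striatal tissue in the dissection differed between mice was not tested.

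Set against 24 genes of cortical excitatory neurons, the summed members amounted to 7.36%, 20.4% and 37.3% of the summed cortical CPM in Lgmn+/+ and to 32.6%, 5.95% and 5.55% in Lgmn-/-. This ratio does not depend on the scaling between libraries. The genotype means were 21.7% ± 15.0 and 14.7% ± 15.5, a ratio of 0.68, which was 0.27 without Lgmn-/- library 1 and 1.06 without Lgmn+/+ library 3. The cortical sum itself was 6175, 5195 and 5223 CPM in Lgmn+/+ and 5489, 5957 and 7061 CPM in Lgmn-/-, a 1.36-fold range against the 5.50-fold range of the members. All 24 genes had a mean over the 6 libraries above 1 FPKM. Slc17a7, the vesicular glutamate transporter of cortical pyramidal neurons, was at 1361, 1014 and 1077 CPM in Lgmn+/+ and at 1052, 1410 and 1393 CPM in Lgmn-/-.

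Other genes of striatal neurons varied between the libraries like the members. Of 31 listed, 30 were in the tables and 26 of these 30 (86.7%) had the same 3 highest libraries as the members' sum, as had 7.60% of all genes tested. The 4 that did not were Chrm4, Foxp2, Meis2 and Eya1. The order of libraries was noted after the values were seen, so these counts describe it and carry no test. Scn4b, a sodium channel subunit, was at 148, 272 and 496 CPM in Lgmn+/+ and at 352, 102 and 102 CPM in Lgmn-/-. Rasd2, a small GTPase enriched in striatum, had a narrower range, 124, 199 and 311 CPM in Lgmn+/+ and 295, 113 and 129 CPM in Lgmn-/-.

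By genotype, edgeR called 0 of these 30 genes, against 3.33% of all genes. At an unadjusted p under 0.05 it was 1 of 30, against 18.6% of all genes. Their median log2 fold change was -0.49, beside -0.01 over all genes. DESeq2, which called 7.76% of all genes, called 1 of the 30. This was Ido1, which encodes a tryptophan-degrading enzyme, at -1.92 (SE 0.61, adjusted p = 0.02619). edgeR gave Ido1 an adjusted p of 0.1906, and its libraries overlapped, at 1.29, 3.25 and 5.83 CPM in Lgmn+/+ and 1.71, 0.50 and 0.52 CPM in Lgmn-/-.

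**Figure D4:**
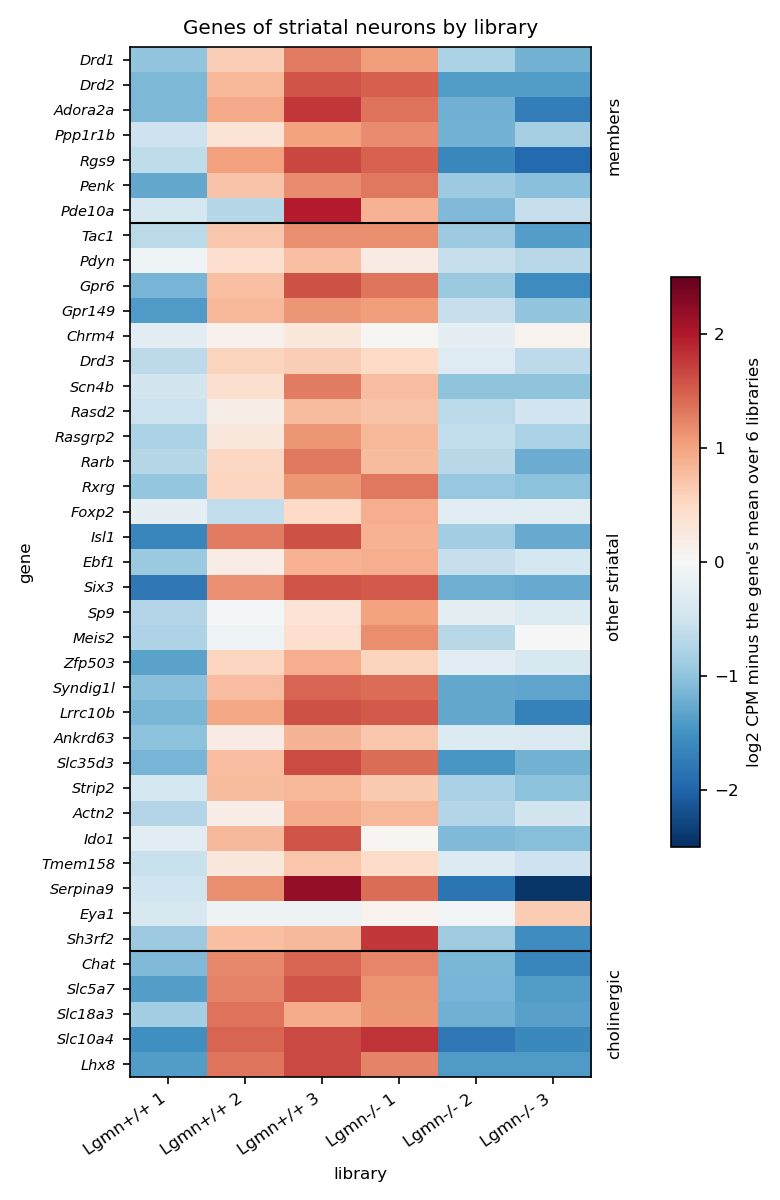
The heatmap shows log2 CPM minus the gene's mean over the 6 libraries for the 7 members and for genes listed for striatal neurons and striatal cholinergic neurons (rows) in each library (columns), red above and blue below the mean. Most rows are red in Lgmn+/+ 2, Lgmn+/+ 3 and Lgmn-/- 1 and blue in the other libraries. Exceptions are Pde10a in the top block and Chrm4, Foxp2, Meis2 and Eya1 in the middle one. Sp9, also in the middle block, is just below its mean in Lgmn+/+ 2 (-0.04).

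The striatum also holds cholinergic interneurons, which share few markers with medium spiny neurons. All 6 of the genes listed for them (among them Chat, Slc5a7, Slc18a3, Slc10a4 and Lhx8) had the same 3 highest libraries, and their sum was 4.36, 40.0 and 45.4 CPM in Lgmn+/+ and 37.3, 3.81 and 2.98 CPM in Lgmn-/-, a 15.2-fold range. Chat, the acetylcholine-synthesizing enzyme, was at 0.98, 6.77 and 8.22 CPM in Lgmn+/+ and at 6.87, 0.93 and 0.52 CPM in Lgmn-/-. Cholinergic neurons of the basal forebrain express these genes too. None of the 6 was called by genotype in edgeR, at an adjusted or unadjusted p under 0.05 (3.33% and 18.6% of all genes).

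The molecules that act with the members in dopamine and cyclic AMP signalling varied less. Of 35 such genes, 8 had the same 3 highest libraries (22.9%, beside 7.60% of all genes tested). Another 3 had them as the 3 lowest (8.57%, beside 5.87% of all genes tested). The 8 with the same 3 highest, chosen after their values were seen, were Gnal, Gng7, Adcy5, Pde1b, Gnb5, Pde7b, Drd5 and Oprm1. Gnal is the G protein alpha subunit that couples D1 and Adora2a receptors to cyclase, and Gng7 its gamma subunit. Adcy5 is the main striatal adenylyl cyclase and Pde1b a phosphodiesterase. Ptpn5, Arpp21 and Rgs7bp were among the listed partners that did not share the order. Adcy5 was at 199, 433 and 662 CPM in Lgmn+/+ and at 498, 196 and 189 CPM in Lgmn-/-. Gnal ranged from 197 to 453 CPM and Pde1b from 171 to 596 CPM.

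The 3 of the 35 with the highest mean FPKM are used widely in the brain. Prkar1b, a regulatory subunit of protein kinase A, lay between 873 and 1123 CPM, Ppp3r1, the regulatory subunit of calcineurin, between 760.3 and 897 CPM, and Ppp3ca, its catalytic subunit, between 1003 and 1298 CPM. Their highest values were within 1.29-fold of their lowest. edgeR called 0 of the 35 by genotype, against 3.33% of all genes. At an unadjusted p under 0.05 it was 3 of 35, against 18.6% of all genes. Pde1a, a calcium-dependent phosphodiesterase, was called by DESeq2, at 0.47 (adjusted p = 0.03063), and by edgeR without Lgmn-/- library 2, at 0.59 (adjusted p = 0.02449). Of all genes, DESeq2 called 7.76% and that edgeR fit 2.94%.

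In the cortical excitatory list 1 of 24 genes (4.17%, beside 7.60% of all genes tested) had the same 3 highest libraries, Bcl11b, a transcription factor that medium spiny neurons share with deep-layer cortical neurons, at 53.6, 102 and 147 CPM in Lgmn+/+ and 141, 60.9 and 73.3 CPM in Lgmn-/-. In 10 of the 24 (41.7%, beside 5.87% of all genes) those libraries were the 3 lowest, Slc17a7 among them. Of 15 genes listed for cortical interneurons, 3 (20.0%) shared the order, Gad1, Gad2 and Slc32a1, the genes for making and loading GABA that medium spiny neurons also use. Gad2 was at 141, 260.4 and 303 CPM in Lgmn+/+ and at 272, 157 and 172 CPM in Lgmn-/-.

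The order was shared by 0 of 8 genes each for astrocytes, oligodendrocytes, microglia and endothelium and by 0 of 5 for red blood cells. Among 10 thalamic genes it was shared by 3 (Tcf7l2, Prkcd and Gbx2), beside 7.60% of all genes, among 9 hippocampal genes tested by 1 (Fibcd1), among 7 hypothalamic genes tested by 1 (Nkx2-1), among 8 choroid plexus genes by 1 (Clic6) and among 10 pan-neuronal genes by 1 (Map2). The same libraries were the 3 lowest for 2 of the 10 pan-neuronal genes (Syt1 and Stmn2). They were also the lowest for 2 of 15 cortical interneuron genes (Pvalb and Cck) and 1 of 8 astrocyte genes (S100b), beside 5.87% of all genes. Th and Ddc, of dopamine synthesis, and Slc6a3, the dopamine transporter, shared it among 5 dopaminergic genes tested (60.0%), with Th at 2.48, 3.90 and 5.28 CPM in Lgmn+/+ and at 18.9, 2.02 and 1.98 CPM in Lgmn-/-. Slc6a3 held 0 to 37 counts a library and Gbx2 2 to 92, so the order of these genes rests on few reads. The same holds in the other lists for Drd3 (0 to 32 counts), Oprm1 (7 to 46) and Lhx8 (4 to 203). Ddc held 143 counts in Lgmn-/- library 1, close to 133 in Lgmn+/+ library 1 and 140 and 131 in Lgmn-/- libraries 2 and 3.

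**Figure D5:**
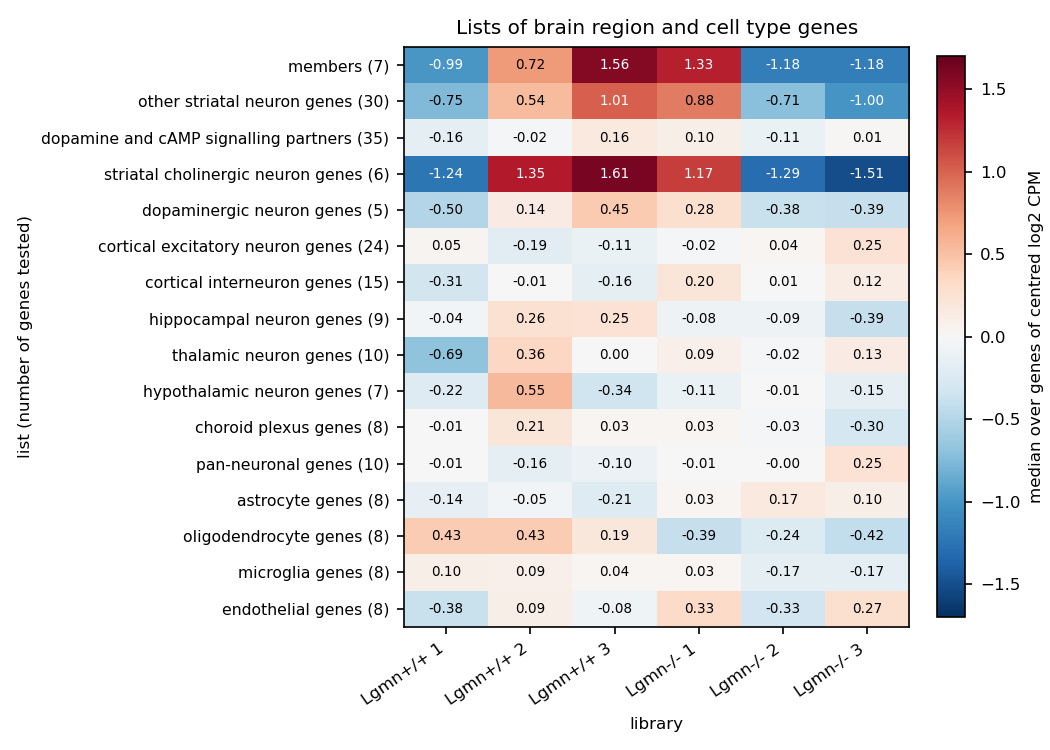
Each cell gives the median, over the genes tested in a list (row, number of genes in brackets), of log2 CPM minus the gene's mean over 6 libraries, in 1 library (column). The members run from -1.18 to 1.56 and the cholinergic genes from -1.51 to 1.61, while the cortical excitatory genes stay between -0.19 and 0.25; red blood cell genes are left out.

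The members loaded strongly on the second principal component of the data and less on the first. In a principal component analysis of 15019 genes, component 1 carried 45.8% of the variance and separated the genotypes without overlap. Component 2 carried 22.1%, with scores of -29.5, 10.4 and 20.3 in Lgmn+/+ and 20.7, -15.8 and -6.10 in Lgmn-/-, so the genotypes overlapped on it. Ranked by loading on the side of the high libraries, the members lay at places 9 (Adora2a), 11 (Drd2), 15 (Rgs9), 29 (Penk), 43 (Drd1), 69 (Ppp1r1b) and 74 (Pde10a) of 15019. On component 1 the Lgmn+/+ libraries scored 27.6, 26.7 and 25.8 and the Lgmn-/- libraries -25.3, -21.0 and -33.8. Ranked by loading on the Lgmn+/+ side of component 1, the members' places ran from 96 to 1267 of 15019. The components were computed with the members included.

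The genes whose levels followed the members most closely were sought among 15012 genes, by the root mean square difference over the 6 libraries from the members' mean log2 profile, which spanned 2.74. Syndig1l was the nearest, at 0.14, followed by Ptpn7 at 0.20, Slc35d3, Tac1 and Rxrg at 0.21 each, Nexn at 0.22 and Gpr6 at 0.23. The median over all candidates was 1.15, and the members themselves were at 0.20 (Drd1) to 0.66 (Pde10a). Ptpn7 and Nexn were the exceptions among these in not being on the list of other striatal genes. Ptpn7 had few reads, from 0.13 CPM in Lgmn-/- library 2 to 3.19 CPM in Lgmn+/+ library 3. The 0.5 CPM added before taking log2 narrows the range of a gene at this level, so the distance of Ptpn7 rests partly on it. Its place without the added 0.5 CPM was not tested. Tac1, the precursor of substance P in direct-pathway neurons, was at 17.7, 45.7 and 64.4 CPM in Lgmn+/+ and at 64.3, 15.0 and 10.7 CPM in Lgmn-/-. Gpr6, an orphan receptor of indirect-pathway neurons, was at 5.13, 20.7 and 37.6 CPM in Lgmn+/+ and at 31.5, 6.20 and 3.76 CPM in Lgmn-/-.

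When the members' summed level was added to the genotype model as a covariate, a fit chosen after the data were seen, edgeR called 570 genes by genotype (274 higher and 296 lower) where the model without it called 611, and 497 genes were called by both. Lgmn was then at -0.64 with an adjusted p of 0.05529.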

How the data were processed

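Cortex RNA of 6 irradiated mice was sequenced on a DNBSEQ-T7 from poly(A) libraries. The authors trimmed reads with Trimmomatic (version 0.36 in the submitters' processing notes), mapped them with HISAT2 to GRCm38 and computed gene values with StringTie, and the deposited tables hold raw counts per gene and FPKM. The counting tool, its strand setting and the annotation are not given in the sources used here, so reads of overlapping genes could not be told apart. FPKM values divide by a transcript length set by the authors. Groups came from the labels.

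Counts were tested with edgeR 4.0.16 (R 4.3.3) by the quasi-likelihood test, with TMM scaling, filterByExpr and genotype as the only term, and p-values were adjusted by Benjamini-Hochberg over 18345 genes with a threshold of 0.05. CPM are TMM-scaled, and 0.5 CPM was added before taking log2, which narrows the range of genes with few reads. Alternatives were DESeq2 1.42.0, limma 3.58.1 (voom, and log2(FPKM + 1) or log2(FPKM + 0.1)), other scalings and filters, each library left out, a replicate block and, added after seeing the data, the summed member level as a covariate. The scripts were tested on simulated data.

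The 7 members, 17 gene lists and tests were chosen with earlier results of these data known. Named genes are the members, Lgmn, listed genes past the threshold or, in lists where none passed, the 3 with the highest mean FPKM, and the 8 genes most like the members. Those named for sharing the members' order of libraries were chosen after their values were seen. Some genes that the rule names are not reported here, though counts and sums over their lists include them. Of 31 listed striatal genes 1 was not analysed here, and the listed Pitx3, Iyd, Hcrt, Ghrh and Sim1 did not pass the filter.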

Additional observations from a re-analysis of the deposited data

How the results depend on the processing

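No member was called by genotype in any of the 15 alternative fits. With DESeq2, 1423 genes were called, with no filter on low counts 404, and 406 when each library had to hold 10 counts, against 611, and leaving out 1 library at a time gave 237 to 539. DESeq2 called 1 other striatal gene and 1 signalling partner, and the partners had 0 to 1 calls when a library was left out. The labels do not say whether the replicate numbers pair the mice. Same-numbered libraries deviated from their group means with correlations of -0.30, -0.05 and -0.05, which cannot settle it with 3 libraries a genotype. A fit with the replicate number as a block called 150 genes, 149 of them among the 611, and gave Lgmn an adjusted p of 0.1127 and the members a median log2 fold change of -0.78. Without the filter on low counts the adjusted p of Lgmn was 0.06319. With 1 library left out, the log2 fold change ran from -1.59 to 0.017 for Drd1, -2.23 to 0.094 for Drd2, -1.40 to 0.15 for Ppp1r1b, -1.51 to 0.19 for Penk and -1.64 to 0.57 for Pde10a, each lowest without Lgmn-/- library 1 and highest without Lgmn+/+ library 3. For Ppp1r1b and Penk they were 0.10 and 0.05 without Lgmn-/- library 2, and 0.04 and 0.08 without Lgmn-/- library 3. The ratio of the members to the cortical genes between genotypes was 0.27 to 1.06 with 1 library left out, and the summed level gave 0.91 in FPKM. The causes were not tested. With 3 mice a genotype, the 95% interval of the fold ran from 0.28 to 2.41 even for Ppp1r1b, the member with the least spread.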
